A study of Homo sapiens with 6 samples.

Results

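Ovarian epithelial lineage markers are the genes by which a cell is placed in the ovarian or Mullerian epithelium, and 10 of them were followed in A2780 cells, a human ovarian cancer cell line. They were the transcription factors PAX8, WT1 and SOX17, the surface and secreted proteins MUC16, EPCAM and WFDC2, and the keratins KRT7, KRT8, KRT18 and KRT19. Each was taken as the row that carries its name, and all 10 were found among 44591 rows per library. The study sequenced polyadenylated RNA from 3 samples of untreated A2780 cells and 3 of cells given human recombinant CRMP2 (r-CRMP2) at 40 ng/ml for 48 h. CRMP2 is a microtubule-associated protein, and the comparison asked how gene expression changed with it. All 6 libraries come from a single cell line, and nothing in the sources used here says whether the replicates were separate cultures, so p-values measure the spread between these libraries only, which may be technical. In a bulk sample, fewer cells expressing a gene and less RNA per cell cannot be told apart.

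PAX8 and SOX17 are transcription factors of the Mullerian epithelium, from which much of ovarian carcinoma is thought to arise, and WT1 marks serous tumours and the gonadal and mesothelial lineages. MUC16 carries the CA125 antigen and WFDC2 encodes HE4, and both proteins are measured in blood as ovarian cancer markers. EPCAM is an epithelial adhesion molecule, and keratins form the intermediate filaments of epithelia, in which a type I chain such as KRT18 or KRT19 pairs with a type II chain such as KRT7 or KRT8.

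The markers fell into 3 ranges of level in untreated cells. Levels are given as TPM, a transcript share that accounts for gene length, so that genes can be set side by side. KRT18, KRT8 and KRT7 stood near the top of the transcriptome at 1986 ± 41.4, 1362 ± 34.0 and 952 ± 70.9 TPM (SD, n = 3), which placed them at ranks 68, 105 and 143 among all rows. EPCAM, PAX8, MUC16 and KRT19 lay between 2.32 and 6.30 TPM, above 35.7%, 19.8%, 19.4% and 19.1% of the tested genes, respectively. WFDC2, WT1 and SOX17 had mean levels of 0.169, 0.0541 and 0.0498 TPM. The step from KRT7 down to EPCAM was 151.0-fold, and that from KRT19 down to WFDC2 was 13.7-fold.

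Within this order, the untreated libraries of KRT18, KRT8, KRT7, EPCAM and PAX8 did not overlap between neighbours. The ranges of PAX8 and MUC16 overlapped, as did those of MUC16 and KRT19, WFDC2 and WT1, and WT1 and SOX17, so their order was not resolved. Against the label of an ovarian epithelial line, 3 keratins were abundant, PAX8 was weak, and 3 of the 10 lineage markers, WFDC2, WT1 and SOX17, were at the limit of counting. VIM, the intermediate filament protein of mesenchymal cells, stood at 1640 TPM in the same untreated cells, between KRT8 and KRT18.

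**Figure D1:**
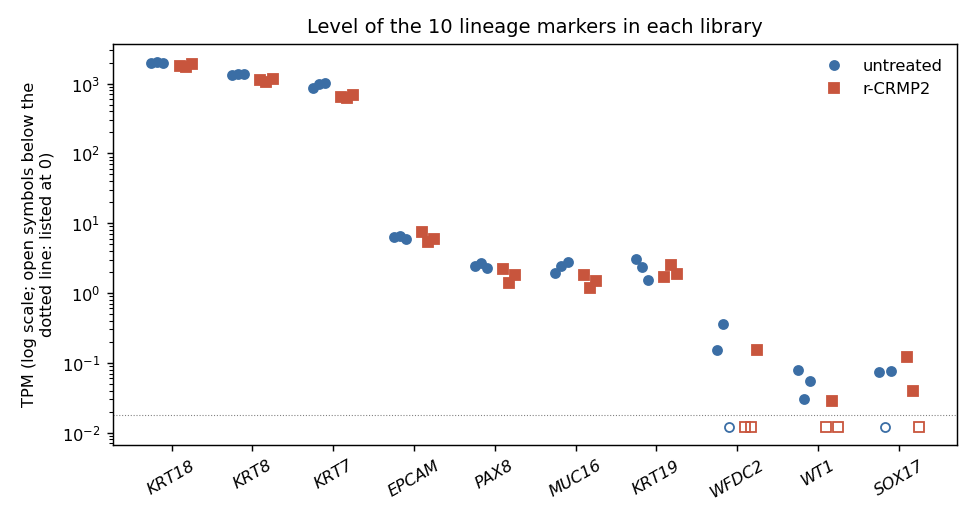
The vertical axis gives TPM on a log scale for each of the 10 markers, with 1 symbol per library (circles: 3 untreated; squares: 3 r-CRMP2) and open symbols below the dotted line for libraries in which the gene is listed at 0. KRT18, KRT8 and KRT7 sit far above the other markers in all 6 libraries, with the untreated mean of KRT7 151.0-fold above that of EPCAM, and WFDC2, WT1 and SOX17 reach 0 in at least 1 library.

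The change with r-CRMP2 was tested for 7 of the 10 markers, those that passed edgeR's filter on low counts, among 16222 genes tested. KRT18 was higher, MUC16 and KRT7 were lower, and PAX8, EPCAM, KRT8 and KRT19 did not pass an adjusted p of 0.05 (edgeR, quasi-likelihood test, p-values adjusted by Benjamini-Hochberg over all genes tested). The 1 higher marker stands beside 28.2% of all tested genes that were higher at this threshold, and the 2 lower markers beside 30.1% that were lower. No marker also passed the log2 fold change threshold of 1 in edgeR, where 5.12% of tested genes were higher and 8.86% lower. At an unadjusted p under 0.05 there were the same 3 markers. Every gene past the adjusted p also passes this one, so the background is at least the 28.2% and 30.1% above. DESeq2 also found 0 markers past both thresholds, for which its share of all tested genes was not counted. The library values did not overlap between the groups for 3 of the 7 markers, namely KRT7, KRT18 and EPCAM, against 64.2% of all tested genes. The median log2 fold change of the 7 tested markers was 0.03, beside -0.03 for all tested genes. These shares are at or below the background, and nothing particular to the markers follows from them.

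The scale matters for changes of this size. The TMM factors, by which edgeR scales each library, were 1.096 to 1.123 in untreated and 0.8785 to 0.9215 in r-CRMP2 libraries. Scaled by library size alone, the median of all tested genes moved from -0.03 to -0.34 on the log2 scale, and the genes at an adjusted p under 0.05 were 2171 higher and 8449 lower, compared with 4574 higher and 4875 lower after TMM. TPM values follow library size in this respect. Relative to that median of -0.34, library size alone placed EPCAM at 0.35, KRT18 at 0.22, KRT19 at 0.14, KRT8 at 0.06, PAX8 at -0.08, KRT7 at -0.19 and MUC16 at -0.33. A change of scale shifts all genes by about the same amount, so the order of the markers had to stay close and is no check of their changes. The sign against 0 differed between the scales for KRT8, KRT18 and KRT19.

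**Figure D2:**
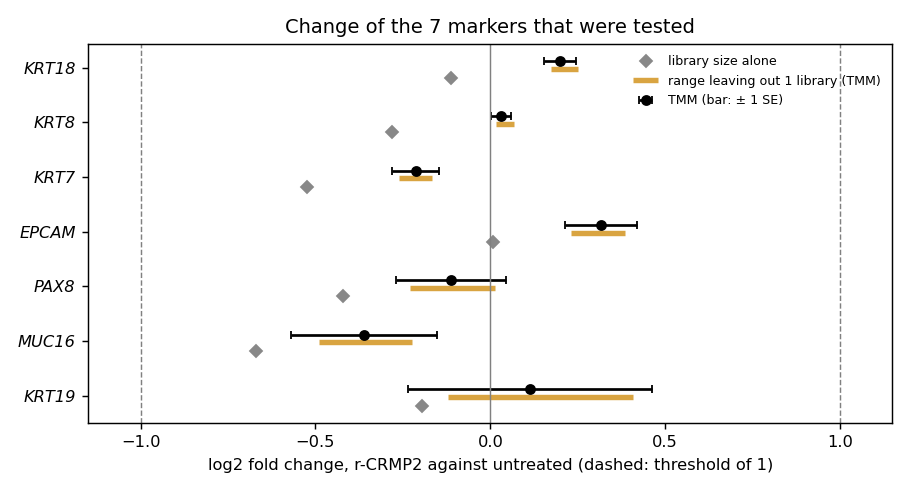
Each row is 1 of the 7 tested markers, and the horizontal axis is the log2 fold change of r-CRMP2 against untreated cells: black points with bars give the TMM estimate ± 1 SE (n = 3 per group), ochre lines the range when each library was left out in turn, and grey diamonds the value with library size alone. Every estimate lies between -1 and 1, and the library-size value lies to the left of the TMM value for every marker, below 0 for KRT18, KRT8 and KRT19.

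PAX8, a paired-box factor required for Mullerian duct and thyroid development, was weakly expressed. Its row spans chr2:113973574-114036498 on the minus strand (hg19, as deposited). Untreated cells gave 113, 107 and 103 counts on it, and treated cells 94, 61 and 86. After scaling of the libraries by TMM, as CPM, these were 4.06, 4.36 and 3.76 in untreated cells against 4.40, 3.08 and 3.74 with r-CRMP2. The highest of the 6 values was an r-CRMP2 library and so was the lowest, and the groups overlapped. The spread of the untreated libraries, 7.33% of their mean, was no larger than the 9.64% that counting alone gives at this depth. The log2 fold change was -0.11 (SE 0.16, edgeR adjusted p = 0.606). Without r-CRMP2 replicate 2 it was 0.01, so its sign rested on that library.

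WT1, a zinc-finger factor, had 3, 1 and 2 counts in untreated and 0, 1 and 0 counts in r-CRMP2 libraries. Its row lies at chr11:32409321-32457081 on the minus strand (hg19). SOX17, an endoderm and Mullerian SRY-box factor, had 2, 0 and 2 counts in untreated and 3, 1 and 0 with r-CRMP2. No library of either gene rose above 3 counts, which is the limit that a count of 0 allows and which corresponds to 0.0773 to 0.0910 TPM for WT1 and 0.109 to 0.128 TPM for SOX17. Over the 6 libraries together there were 7 counts on WT1 and 8 on SOX17, so no change could be measured at this depth.

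Promoter windows are shown for 3 lineage markers, PAX8 with its weak signal and WT1 and WFDC2 at the counting limit. The windows are from RefSeq (GRCh38.p14), and the set used here covered 5 of the 10 markers, namely PAX8, WT1, KRT8, MUC16 and WFDC2. SOX17 was left out of this set by choice before the markers were matched, so its absence here does not describe the reference. Each window runs from 250 bases before an annotated start to 50 bases after it, on the gene's strand. Capitals mark the core of the hypoxia response element, ACGTG or GCGTG on either strand, which was searched because HIF-1 is the pathway named in the study's title. WT1 had 4 windows in the table, and the one shown is that of its most upstream start.
PAX8 chr2:113278872-113279171, minus strand: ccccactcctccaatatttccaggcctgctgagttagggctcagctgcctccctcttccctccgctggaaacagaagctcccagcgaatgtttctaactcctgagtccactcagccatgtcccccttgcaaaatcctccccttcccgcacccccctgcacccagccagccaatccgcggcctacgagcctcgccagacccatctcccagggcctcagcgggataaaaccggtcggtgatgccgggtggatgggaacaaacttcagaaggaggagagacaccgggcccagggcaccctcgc
WT1 chr11:32435490-32435789, minus strand: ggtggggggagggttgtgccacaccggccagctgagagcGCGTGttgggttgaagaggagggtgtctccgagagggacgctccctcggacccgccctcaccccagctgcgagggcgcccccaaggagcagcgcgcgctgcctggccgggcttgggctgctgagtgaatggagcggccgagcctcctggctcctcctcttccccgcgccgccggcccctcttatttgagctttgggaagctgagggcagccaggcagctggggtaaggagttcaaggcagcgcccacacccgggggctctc
WFDC2 chr20:45469503-45469802, plus strand: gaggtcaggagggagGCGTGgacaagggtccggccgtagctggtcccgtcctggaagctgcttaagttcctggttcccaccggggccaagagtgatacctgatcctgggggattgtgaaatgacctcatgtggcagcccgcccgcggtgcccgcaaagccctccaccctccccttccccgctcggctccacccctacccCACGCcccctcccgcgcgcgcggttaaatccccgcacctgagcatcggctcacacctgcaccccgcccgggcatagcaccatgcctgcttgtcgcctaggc
The PAX8 window held no match to the core, the WT1 window shown held 1 and the WFDC2 window held 2. The core occurred in 48.4% of the 35116 windows of this length in the table, so a match is common, and its presence or absence says nothing about the factor. GC content was 62.0%, 70.0% and 67.3%, beside a median of 58.7% over all windows. The windows held 13, 21 and 22 CpG dinucleotides, with observed to expected ratios of 0.483, 0.575 and 0.666 around a median of 0.579. The GC box GGGCGG, found in 45.0% of all windows on either strand, was absent from the PAX8 window, present at 1 place in the WT1 window shown and at 2 in that of WFDC2. The TATA box TATAAA, found in 11.5% of all windows, was in none of the 3. The other 3 windows of WT1 each held 1 core match and no GC box, with GC contents of 55.0%, 64.3% and 47.3%, and 17, 20 and 4 CpG at ratios of 0.757, 0.672 and 0.238. The 2 windows of MUC16 and the window of KRT8 are not shown, because they lie at annotated starts other than the main start of the gene. They held no core match and had CpG ratios of 0.278, 0.228 and 0.111, which do not describe the main promoters of MUC16 and KRT8.

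MUC16 was the marker with the lowest estimated change. It encodes a very large membrane mucin, and its deposited row (chr19:8959520-9092018, minus strand, hg19) has a length of 43816 bases, so that 970, 1054 and 1378 untreated counts came to only 1.91, 2.42 and 2.81 TPM. The r-CRMP2 libraries had 836, 551 and 750 counts. On the CPM scale the untreated values were 34.9, 43.0 and 50.4 and the r-CRMP2 values 39.1, 27.9 and 32.7. The groups overlapped, because r-CRMP2 replicate 1 lay above untreated replicate 1. The log2 fold change was -0.36 (SE 0.21, edgeR adjusted p = 0.0133), a level 22.2% lower. The untreated libraries spread by 18.1% of their mean, where counting alone gives 2.97%, so depth was not what limited this value. The call was lost without untreated replicate 3, at -0.22, and without r-CRMP2 replicate 2, at -0.24, with edgeR adjusted p-values of up to 0.121.

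EPCAM, the epithelial adhesion molecule, was the marker with the highest estimate and was not called. It had 127, 112 and 115 untreated counts and 134, 100 and 121 with r-CRMP2 (chr2:47596287-47614167, plus strand, hg19). As CPM these were 4.57, 4.56 and 4.20 against 6.27, 5.06 and 5.27, with every r-CRMP2 library above every untreated one. The log2 fold change was 0.32 (SE 0.10, edgeR adjusted p = 0.0852), and it ranged from 0.23 to 0.38 when each library was left out. On the TPM scale the groups overlapped, at 6.30 ± 0.291 untreated and 6.28 ± 1.005 with r-CRMP2 (SD, n = 3), and library size alone gave a log2 fold change of 0.01.

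WFDC2, a small secreted protein with WAP domains, had 1, 2 and 0 counts in untreated and 0, 0 and 1 in r-CRMP2 libraries (chr20:44098394-44110172, plus strand, hg19). At 566 bases it is the shortest row of the 10, and 3 counts on it correspond to 0.453 to 0.533 TPM. All 6 libraries were below this limit. Of the serum markers, MUC16 was thus measurable in these cells, and WFDC2 was not detectable above the limit at this depth.

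KRT18, the type I keratin of simple epithelia, was the most abundant marker. Its 3 untreated libraries held 35464, 30896 and 33333 counts and its r-CRMP2 libraries 28979, 28766 and 34309 (chr12:53342655-53346685, plus strand, hg19). On the CPM scale it went from 1275, 1259 and 1218 to 1356, 1454 and 1494, with no overlap. The log2 fold change was 0.20 (SE 0.05, edgeR adjusted p = 0.0111), but with library size alone it was -0.11, on the other side of 0. The call was lost without untreated replicate 3, at 0.18, and without r-CRMP2 replicate 3, at 0.17.

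KRT8, the type II partner of KRT18, had 34845, 31377 and 34658 untreated counts and 26692, 25734 and 30515 with r-CRMP2 (chr12:53290971-53343650, minus strand, hg19). As CPM it stood at 1253, 1279 and 1267 in untreated cells and at 1249, 1301 and 1329 with r-CRMP2, and the groups overlapped. It was the most even of the markers, with an untreated spread of 1.02% of the mean. Its log2 fold change was 0.03 (SE 0.03, edgeR adjusted p = 0.691) after TMM and -0.28 with library size alone, where it passed the threshold (edgeR adjusted p = 8.7e-05).

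KRT7, a type II keratin used in pathology to mark Mullerian and other glandular epithelia, had 17205, 16603 and 19105 untreated counts and 11683, 11251 and 13871 with r-CRMP2 (chr12:52626954-52642709, plus strand, hg19). Its CPM values were 619, 677 and 698 in untreated and 547, 569 and 604 in r-CRMP2 libraries, and every treated library lay below every untreated one. The log2 fold change was -0.21 (SE 0.07, edgeR adjusted p = 0.0092), a level 13.7% lower, and it was -0.53 with library size alone. The call was lost without untreated replicate 2, at -0.20, and without untreated replicate 3, at -0.18.

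KRT19, the smallest type I keratin, was almost absent beside the other simple-epithelial keratins, at 53, 34 and 25 untreated counts and 26, 39 and 32 with r-CRMP2 (chr17:39679869-39684641, minus strand, hg19). In TPM, KRT18 was 857-fold higher. The CPM values of KRT19 were 1.91, 1.39 and 0.914 against 1.22, 1.97 and 1.39, and they overlapped. The log2 fold change of 0.11 (SE 0.35, edgeR adjusted p = 0.772) became -0.20 with library size alone and -0.12 to 0.41 when a library was left out.

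As a share of all counts, KRT7, KRT8 and KRT18 together made up 0.344% to 0.360% of the untreated libraries and 0.290% to 0.306% of the r-CRMP2 libraries. They supplied 98.2% to 98.9% of the counts on the 10 markers in every library.

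The ratio of 2 keratins within a library does not depend on how the libraries are scaled. KRT8 and KRT18 were close to equal in counts in untreated cells, with ratios of 0.983, 1.016 and 1.04, and the r-CRMP2 ratios were 0.921, 0.895 and 0.889. The log2 ratio differed by -0.17 (SE 0.0284), and the groups did not overlap. The ratio of KRT7 to KRT18 went from 0.485, 0.537 and 0.573 to 0.403, 0.391 and 0.404, a log2 difference of -0.41 (SE 0.0717). The ratio of KRT7 to KRT8 differed by -0.24 (SE 0.0499) on the log2 scale. Each of these ratios, and that of KRT17 to KRT18 below, was separated completely between the groups in all 6 libraries. The exact two-sided permutation test gave p = 0.1 for each, the smallest value that 3 against 3 libraries allow, and 0.1 after Benjamini-Hochberg adjustment over the 4 ratios. On any scale of the libraries, KRT7 was lower relative to KRT18 in each r-CRMP2 library than in each untreated one, with KRT8 between them.

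**Figure D3:**
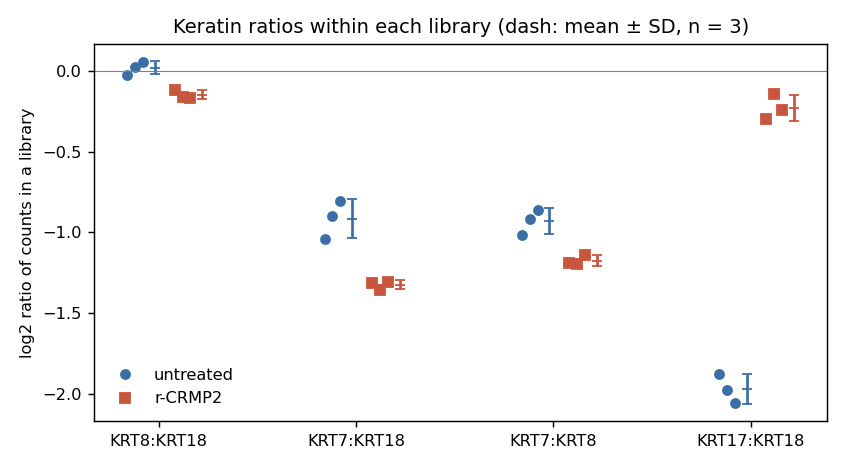
The vertical axis is the log2 ratio of counts within a library for 4 keratin pairs, with 1 symbol per library (circles: untreated; squares: r-CRMP2) and the mean ± SD (n = 3) beside them. The 3 pairs of markers are lower in every r-CRMP2 library, by 0.17 to 0.41 in the mean, and KRT17 to KRT18 is higher by 1.74.

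The abundant keratin that moved most was not among the markers. KRT17, a type I keratin of basal and stress-responsive epithelia, had 9682, 7873 and 8011 untreated counts and 23546, 26044 and 28952 after treatment, without overlap. It rose by a log2 fold change of 1.94 (SE 0.11, edgeR adjusted p = 4.5e-13), and its TPM went from 496 to 1512. Its ratio to KRT18 went from 0.273, 0.255 and 0.240 to 0.813, 0.905 and 0.844, so that in r-CRMP2 cells the 2 genes were nearly equal in counts. This pair and the ratios with KRT7 were added after the values were seen.

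Among 12 type I keratins, KRT18 made up 77.2%, 78.2% and 79.2% of the summed TPM in untreated cells and 54.7%, 52.0% and 53.8% with r-CRMP2. KRT17 made up 19.5% ± 0.995 (SD, n = 3) and 44.5% ± 1.34, and the share of KRT19 was 0.0907% ± 0.0292 and 0.0590% ± 0.0126. Among 13 type II keratins, KRT8 went from 42.6% ± 1.73 to 46.8% ± 0.471 and KRT7 from 29.7% ± 0.656 to 27.6% ± 0.781, while the hair keratin KRT81 held 25.0% and 22.1%. The summed level of the type I genes was 2453 to 2590 TPM untreated and 3274 to 3552 with r-CRMP2, whereas that of the type II genes was 3009 to 3365 and 2294 to 2448. The shares of KRT18, KRT17, KRT8, KRT7 and KRT81 did not overlap between the groups (exact permutation p = 0.1 each, the smallest possible), and for KRT19 the exact p was 0.2. For the genes counted here, the type II sum was above the type I sum in untreated cells and below it in r-CRMP2 cells. The lists were a choice and not complete. The hair keratin KRT81, at 724 to 907 TPM untreated, was counted in type II, and no hair keratin was counted in type I. Which sum was higher in untreated cells depends on whether KRT81 is counted.

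**Figure D4:**
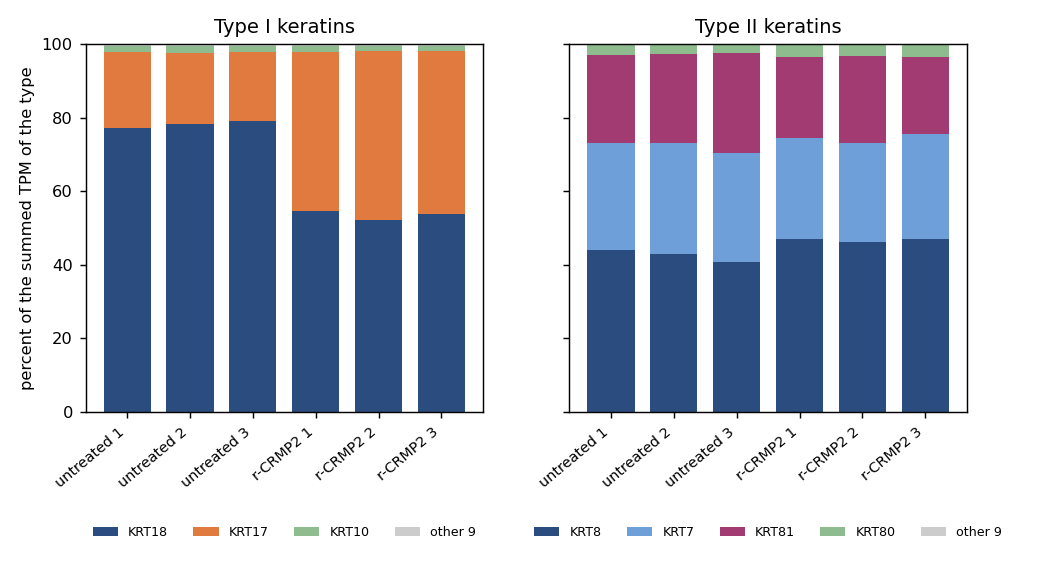
Bars show, for each library, the percent of the summed TPM of 12 type I (left) and 13 type II keratins (right) that each named gene makes up. KRT18 occupies 77.2% to 79.2% of the type I bars in untreated and 52.0% to 54.7% in r-CRMP2 libraries, with KRT17 taking most of the rest, while KRT8 and KRT7 shift by under 5 percentage points in the mean.

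Reads of some markers could have been split or shared with other rows. There were 43 rows for processed copies of KRT8, and they held 1.42% to 1.52% of the counts on KRT8 and its copies in untreated and 0.655% to 0.840% in r-CRMP2 libraries. Among them, KRT8P42 went from 232, 202 and 244 counts to 35, 23 and 32 (log2 fold change -2.60, edgeR adjusted p = 3.8e-10). KRT8P12 fell by 1.55 and KRT8P33 by 1.33 on the log2 scale, and KRT8P39 rose by 2.25 (edgeR adjusted p = 1.7e-06, 9.9e-04 and 3.2e-05, respectively). The 62 rows for copies of KRT18 held 0.126% to 0.168% and 0.198% to 0.244% of the sum, and KRT18P7 went from 3, 5 and 0 counts to 37, 24 and 37. Copies of KRT19 had 0 or 1 counts in each library. How reads that match several places were assigned is not given in the sources used here, so these pseudogene values are uncertain, and they are small beside the keratins themselves.

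The library kit does not mark strand, and a marker and its antisense partner therefore cannot be told apart where they overlap. KRT8 and KRT18 lie on opposite strands and share 996 bases. PAX8 overlaps PAX8-AS1, which had 529, 400 and 429 untreated and 266, 224 and 240 r-CRMP2 counts, more than PAX8 itself, with a log2 fold change of -0.58 (SE 0.11, edgeR adjusted p = 1.5e-04). The antisense row inside KRT7 (chr12:52638832-52641232, minus strand) had 556, 461 and 557 counts and then 296, 227 and 320, with a log2 fold change of -0.59 (SE 0.10, edgeR adjusted p = 4.4e-05). A longer row antisense to PAX8, ENSG00000189223.9, overlaps it over 57274 bases and spans the whole PAX8-AS1 row on the same strand. It had 128, 96 and 107 counts and then 49, 38 and 69, with a log2 fold change of -0.77 (SE 0.20, edgeR adjusted p = 0.0024). Row ENSG00000258395.1, also antisense to PAX8, had 0 to 9 counts. The 3 tested antisense rows were lower with r-CRMP2 without overlap between groups, but those opposite PAX8 share a locus and are not separate observations. Their part in the values of PAX8 and KRT7 was not tested. WT1-AS was listed at 0 in all 6 libraries.

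Other genes of the same lineage give the markers a context. Of 24 further Mullerian or ovarian carcinoma genes, 14 were tested, 5 were higher and 4 lower at an adjusted p under 0.05 (edgeR), and their median log2 fold change was 0.23, beside -0.03 for all tested genes. With library size alone that median was -0.08, with no low-count filter it was -0.06, and without r-CRMP2 replicate 1 it was 0.13. Past both thresholds, the mucin MUC1 rose by 1.10 and the secreted protease inhibitor SLPI by 1.27, whereas the transcription factors MECOM and HOXB13 fell by 1.31 and 1.10 on the log2 scale. The calls of MUC1 and SLPI past both thresholds were lost with library size alone, at 0.79 and 0.96. SLPI and CRABP2 were the most abundant of the list, at 426 and 366 TPM untreated. SLPI carries WAP domains as WFDC2 does, and MUC1 is a membrane mucin as MUC16 is, and MUC1 stood at 57.1 TPM untreated beside 2.38 TPM for MUC16.

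Of the 21 other keratins, 10 were tested. Past both thresholds were KRT17, KRT16 and KRT12, which rose by 1.94, 1.86 and 1.96. KRT12 had low counts, at 44, 43 and 27 in untreated and 110, 113 and 136 in r-CRMP2 libraries. At the adjusted p alone KRT10 and KRT80, named with KRT86 after the values were seen, were higher, each by 0.31, but stood at -0.00 with library size alone. KRT81 and KRT86 were lower by 0.29 and 0.55 on the log2 scale, and 3 did not pass. The KRT81 row lies inside the KRT86 row on the opposite strand, so reads of this pair may be shared. Rows for copies of KRT16 held 1.40% to 17.7% of the counts on KRT16 and its copies, so KRT16, at 51 to 211 counts, is uncertain.

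Of 20 epithelial junction and surface genes, 19 were in the table and 9 were tested. In edgeR with TMM and the filter on low counts, 0 passed both thresholds and 4 passed the adjusted p, of which CLDN4, CLDN7 and F11R were higher by 0.23, 0.64 and 0.91 and ST14 was lower by 0.78. CLDN7 and ST14 are named after the values were seen. With library size alone, and with no low-count filter, 1 gene of the list was lower past both thresholds. CDH1, which encodes E-cadherin and was chosen after its values were seen, had 0 to 5 counts per library. Of 13 epithelial regulators, 4 were tested, and ELF3, an epithelial ETS factor, rose by 2.85 (SE 0.16, edgeR adjusted p = 9.9e-14) from 16.0 to 92.0 TPM. KLF5, at 64.5 TPM the most abundant regulator, did not pass (log2 fold change 0.19, edgeR adjusted p = 0.0581). Of 15 desmosomal and keratin-binding genes, 11 were tested, 5 were higher and 5 lower at the adjusted p. Among them, EPPK1, which encodes the keratin-binding protein epiplakin, fell by 1.78 on the log2 scale. The median of the list was -0.16, or -0.47 with library size alone. JUP, which encodes plakoglobin, and PLEC, which encodes the filament linker plectin, were the most abundant at 237 and 176 TPM untreated, and differed by 0.22 and -0.23.

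The mesenchymal and intermediate filament list had 15 tested genes of 16, of which 9 were higher and 2 lower at the adjusted p (edgeR), where 28.2% and 30.1% of all tested genes were. Its median was 0.55, beside -0.03 for all tested genes, and 0.24 with library size alone, where the median of all tested genes was -0.34. FN1 and SNAI2 passed both thresholds, at 1.65 and 1.47, and 0 genes were lower past both, or 1 with library size alone. VIM was higher by 0.84 (SE 0.04, edgeR adjusted p = 1.7e-09) and went from 1640 to 2340 TPM, above every keratin in r-CRMP2 cells. LMNA, which encodes the nuclear lamins A and C, was higher by 0.93 from 457 TPM untreated.

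**Figure D5:**
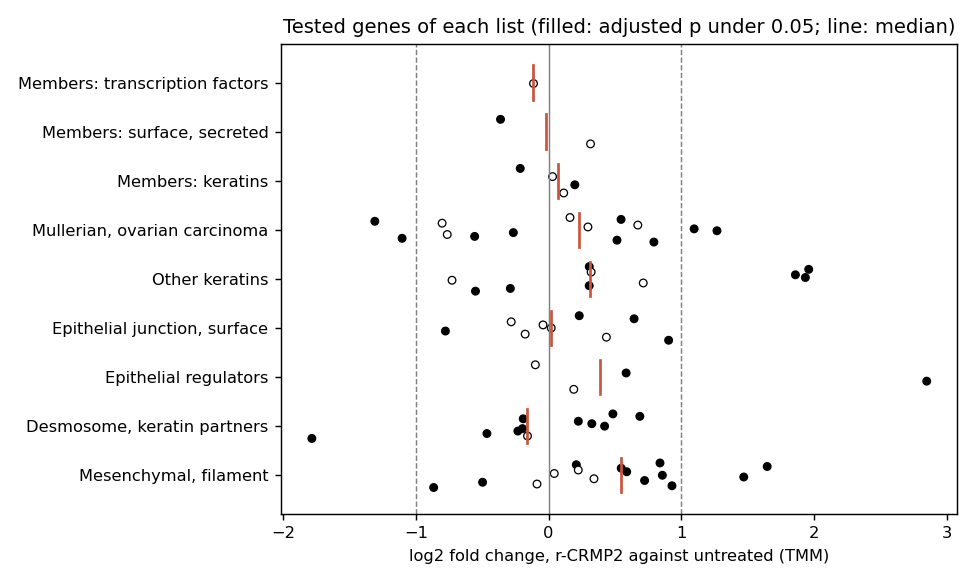
Each point is a tested gene, placed by its log2 fold change of r-CRMP2 against untreated cells after TMM, in rows for the 3 groups of markers and 6 related lists (filled: edgeR adjusted p under 0.05; vertical line: median of the list; dashed: thresholds). All markers lie between -0.36 and 0.32, while ELF3 at 2.85 and EPPK1 at -1.78 are the outermost points.

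Genes that share a protein class with a marker, such as other PAX, SOX, WAP and mucin genes, were tested in 16 of 25 cases. At the adjusted p (edgeR), 4 were higher and 6 lower, with a median of -0.47. That median was -0.78 with library size alone, -0.12 with at least 10 counts in every library and 0.03 without r-CRMP2 replicate 3. SOX18, the sister of SOX17, was at 22.98 TPM untreated and fell by 1.08 on the log2 scale. MUC13, PAX6 and EGR1 fell by 1.66, 1.08 and 4.55, and WFDC3 rose by 1.31. PAX6 had low counts, at 17, 28 and 34 in untreated and 11, 10 and 9 in r-CRMP2 libraries. With library size alone, 0 genes of this list were higher past both thresholds, against 3 with TMM, which include MUC1 and SLPI. Of 25 genes of granulosa, sex-cord or germ cells, among which WT1 and SOX17 are also used as markers, 12 were tested and 7 passed, 4 higher and 3 lower, with SOX9 and PRDM1 at 1.40 and 1.99 and FOXL2 and LHX9 at -1.40 and -1.22. Past both thresholds, 1 rather than 2 of that list was lower without untreated replicate 1, r-CRMP2 replicate 1 or r-CRMP2 replicate 3. LHX9 also had low counts, at 43, 23 and 37 in untreated and 8, 18 and 9 in r-CRMP2 libraries. TFAP2C and SALL4, germ cell factors, were the most abundant of that list at 37.2 and 18.9 TPM untreated.

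Markers of other cell types were checked beside these values. Of 11 fibroblast genes, 10 were tested, 4 were higher and 3 lower at the adjusted p and 0 passed both thresholds in edgeR. Their summed level was 279.8 to 319.6 TPM untreated and 199.6 to 214 TPM with r-CRMP2, led by COL1A1 and THY1 at 172 and 34.4 TPM untreated. With r-CRMP2 these 2 genes stood at 104 and 31.0 TPM. TPM follows library size, and after TMM the median log2 fold change of the list was 0.19, beside -0.03 for all tested genes. Of 8 mesothelial genes, only UPK3B was tested (log2 fold change -0.36, edgeR adjusted p = 0.172), and the list summed to 2.87 to 3.53 TPM and 1.96 to 2.33 TPM. PDPN, the next most abundant of them, had 1 to 7 counts per library. Of 8 endothelial and immune genes, 4 were tested. CD68 was higher by 1.69, CDH5 was lower by 1.96, and 2 did not pass. The list summed to 32.6 to 37.8 TPM and 78.4 to 79.4 TPM, most of it CD68 at 30.3 TPM untreated and 77.8 TPM with r-CRMP2. PTPRC, the pan-leukocyte marker, which was chosen after its values were seen, had 0 to 4 counts per library. The part of these genes in the marker values was not tested.

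For each marker that passed the test, the tested genes with the nearest pattern were found from the root mean square difference of log2 CPM, centred per gene, over the 6 libraries. MUC16 was nearest to FRS3, ZNF34 and PMS2P5 (0.0499, 0.0603 and 0.0746), KRT7 to DESI1, UBXN8 and LAP3 (0.0239, 0.0245 and 0.0312), and KRT18 to UBALD1, OTUD5 and SHPK (0.0118, 0.0163 and 0.0194). No marker was among the 3 nearest genes of another.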

How the data were processed

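RNA-seq libraries of 3 untreated and 3 r-CRMP2-treated A2780 samples were used. The authors made poly(A) libraries with a kit that does not mark strand. The submitters' processing notes name FastQC, HISAT2, DESeq2 and the build hg19; the counting tool and its handling of strand and multiple matches are not given in the sources used here. The authors deposited raw read counts per gene, and TPM values computed from counts and gene lengths. Totals were 21888530 to 25711353 counts per library, so that 3 counts, the limit a count of 0 allows, equal 0.1079 to 0.1517 CPM (counting error only).

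Counts were compared with edgeR 4.0.16 (quasi-likelihood test, TMM, filterByExpr; limma 3.58.1, R 4.3.3), with Benjamini-Hochberg adjustment over 16222 genes, and called at an adjusted p under 0.05, or at this and an absolute log2 fold change over 1. SE values come from the replicate spread of log2 CPM (prior count 2). Ratios and shares used exact two-sided permutation tests. The markers and gene lists were chosen with earlier results of these data known. Named genes are the 10 markers, their pseudogene copies and antisense rows, in each list those past both thresholds and the 2 most abundant, and the 3 nearest patterns, except where the text says otherwise. Alternatives were library size alone, RLE size factors, DESeq2 1.42.0, no filter on low counts, a minimum of 10 counts per library, a replicate block and leaving out each library. Replicates of a group differed by more than sampling noise (chi-square per degree of freedom 3.87 to 11.1).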

Additional observations from a re-analysis of the deposited data

How the results depend on the processing

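With RLE size factors, DESeq2, no low-count filter or at least 10 counts in every library, the 7 tested markers kept their direction and their side of the threshold. Library size alone left 0 markers higher and 4 lower at the adjusted p, against 1 and 2, because it adds a shift of the whole library. It gave KRT8 -0.28, KRT18 -0.11, KRT19 -0.20, KRT10 -0.00379 and KRT80 -0.00451, all on the other side of 0, and took PAX8 to -0.42, past the threshold (edgeR adjusted p = 0.0495). With it, the genes at the adjusted p numbered 2171 higher and 8449 lower.

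Leaving out each library gave 0 to 1 higher and 0 to 2 lower markers at the adjusted p. Among all 16509 to 16848 genes tested in these fits, 4163 to 4568 were higher and 4332 to 4696 lower. The log2 fold changes then ranged from -0.23 to 0.0129 for PAX8, -0.49 to -0.22 for MUC16, -0.26 to -0.17 for KRT7, 0.17 to 0.25 for KRT18 and -0.12 to 0.41 for KRT19, and the order by TPM placed 2 to 4 markers at another rank. Why these calls changed was not tested, beyond that fewer libraries were fitted.

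The labels number the replicates 1 to 3 in both groups, but deviations of same-numbered libraries were not correlated (-0.0209, 0.0038 and -0.0252). With the replicate block, 1 marker was higher and 2 were lower, as without it, at a log2 fold change of -0.36 for MUC16, -0.21 for KRT7 and 0.20 for KRT18. Among all 16222 genes tested with the block, 4456 were higher and 4774 lower. WT1, SOX17 and WFDC2, at 0 to 3 counts per library, did not pass the filter on low counts and were not tested in the main fit. With no filter they were not called, but counts this low cannot measure a change.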
